A study of Mus musculus with 2 samples.

Results

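The interferon response genes examined here are 44 genes that cells switch on when interferon reaches them, taken as a list of named genes from the 12798 genes of a single-cell RNA table. All 44 were in the table. They were read in 9 families by role, of which 2 were set against each other: 3 genes of IFIT and OAS type (Ifit1, Ifit3 and Oasl2) and 10 of GBP and IRG type (7 guanylate-binding proteins, and Igtp, Iigp1 and Ifi47). The table covers CD8 T cells of the lamina propria, the connective layer under the gut lining. They were taken from the colon of Rag1 KO hosts, which make no mature T or B cells of their own. The hosts had received naive wildtype CD4 T cells, sorted as CD4+CD45RBhighCD25-, which drive colitis in such hosts, together with splenic TCRb+CD8b+CD4- T cells. These CD8 cells came from Bcl6fl/flCd8aCre donors or from Bcl6fl/fl donors, so both groups carried the floxed Bcl6 allele and only one carried Cre. Cre was made under Cd8a control, and cells were taken 6 to 10 weeks after transfer from mice labelled as 8 to 12 weeks old at its start. All cells shared 1 pooled gene expression library and were told apart by 8 hashtags, with 4 hashtags named Cren_1 to Cren_4 and 4 named Crep_1 to Crep_4. Cren and Crep were read as without Cre and with Cre, which no source spells out. Whether a hashtag stands for 1 mouse is not given in the sources used here, so p-values measure only the spread among hashtags.

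Type I interferons signal through the receptor chains Ifnar1 and Ifnar2, and their target genes carry the interferon-stimulated response element (ISRE). Interferon gamma, which activated CD8 T cells secrete, signals through Ifngr1 and Ifngr2, and many of its target genes carry the gamma-activated site (GAS). IFIT and OAS genes are classical targets of the first route, while GBP and IRG genes, the immunoproteasome and Irf1 answer strongly to the second.

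The promoter sequences of the 2 families were searched for the letters of these elements. RefSeq promoters (GRCm38.p6, 250 bases before to 50 after each start) were matched for 33 of the 44 genes, with 44 entries. Entries for Parp14, Gbp4, Ly6a, Iigp1, Gbp6, Ifi27l2a, Zbp1, Usp18, Gbp8, Gbp9 and Rtp4 were not used here. The ISRE letters searched were GAAA, any 2 bases and GAAA, and the GAS letters TTC, any 3 bases and GAA, both on either strand, and matches of the same or the other motif could overlap. The 160 bases before the start are shown 5′ to 3′ on the gene's strand for Ifit1 (chr19:34640729-34640888, plus strand), Ifit3 (chr19:34583369-34583528, plus strand) and the ubiquitin-like Isg15 (chr4:156200819-156200978, minus strand). Capitals mark the matched letters, and these 3 windows are shown because each holds repeated ISRE letters and no GAS letters.
Ifit1: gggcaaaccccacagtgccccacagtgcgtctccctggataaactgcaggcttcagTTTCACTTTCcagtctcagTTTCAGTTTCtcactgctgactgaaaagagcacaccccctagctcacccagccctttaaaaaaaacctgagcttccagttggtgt
Ifit3: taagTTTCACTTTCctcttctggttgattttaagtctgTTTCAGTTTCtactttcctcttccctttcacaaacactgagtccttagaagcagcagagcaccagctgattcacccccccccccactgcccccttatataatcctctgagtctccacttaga
Isg15: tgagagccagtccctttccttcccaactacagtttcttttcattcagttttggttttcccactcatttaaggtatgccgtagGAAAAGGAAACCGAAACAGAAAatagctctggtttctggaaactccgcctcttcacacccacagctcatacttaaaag

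In the Ifit1 window the ISRE letters began 104 and 85 bases before the start, and in the Ifit3 window 156 and 122 bases before it. The Isg15 window held 3 overlapping matches, the first 78 bases before the start. The next windows are shown because they hold overlapping ISRE letters (Gbp3), both kinds of letters (Gbp7, Igtp and Bst2) or GAS letters alone (Irf1): Gbp3 (chr3:142559884-142560043, plus strand), Gbp7 (chr3:142530176-142530335, plus strand), Igtp (chr11:58199396-58199555, plus strand), the membrane tether Bst2 (chr8:71537473-71537632, minus strand) and the transcription factor Irf1 (chr11:53769854-53770013, plus strand).
Gbp3: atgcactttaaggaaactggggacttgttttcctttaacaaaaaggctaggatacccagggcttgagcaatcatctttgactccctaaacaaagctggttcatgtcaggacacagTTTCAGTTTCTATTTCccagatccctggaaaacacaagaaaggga
Gbp7: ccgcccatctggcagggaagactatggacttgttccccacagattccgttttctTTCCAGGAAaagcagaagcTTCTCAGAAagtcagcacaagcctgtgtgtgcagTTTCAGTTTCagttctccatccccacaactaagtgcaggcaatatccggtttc
Igtp: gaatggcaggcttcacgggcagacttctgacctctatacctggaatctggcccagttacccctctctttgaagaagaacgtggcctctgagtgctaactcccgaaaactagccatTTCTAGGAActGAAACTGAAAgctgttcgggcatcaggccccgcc
Bst2: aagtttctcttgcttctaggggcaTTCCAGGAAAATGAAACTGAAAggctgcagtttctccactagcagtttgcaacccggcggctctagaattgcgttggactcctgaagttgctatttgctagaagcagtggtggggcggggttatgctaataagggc
Irf1: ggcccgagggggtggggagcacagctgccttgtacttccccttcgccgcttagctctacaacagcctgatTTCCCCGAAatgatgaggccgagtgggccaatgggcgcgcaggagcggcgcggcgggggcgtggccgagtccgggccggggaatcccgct

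Gbp3 held 2 overlapping ISRE matches, Gbp7 and Igtp held ISRE and GAS letters, Bst2 held both in 1 unbroken run, and Irf1 held GAS letters alone, 90 bases before the start. Over the matched members, 18 of 44 promoters (40.9%) held ISRE letters, against 3.44% of the 32851 promoters in the RefSeq table. GAS letters were in 11 of 44 (25.0%), against 8.30% of all promoters. Only 5 of the 10 GBP and IRG genes had a promoter entry, and of these 4 held ISRE letters and 2 GAS letters. IFIT and OAS promoters held ISRE letters in 2 of 3 genes and GAS letters in 0 of 3. Of all genes with a promoter 9.55% held GAS letters, so 0 of 3 is near that share. Among the other antiviral effectors 4 of 8 genes held ISRE letters and 5 of 8 GAS letters. GAS letters were thus not particular to the GBP and IRG type. The 3 antigen processing genes held ISRE letters in 0 promoters and GAS letters in 1, that of Psmb8. A match is a description of letters in this window and not a site in use.

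The table held 25614763 unique molecular identifiers (UMIs, each counting 1 captured transcript) in 8562 cells, from 2635241 to 4201265 per hashtag in 900 to 1305 cells, and no cell barcode was repeated. The CD8 T cell markers Cd8a, Cd8b1, Cd3e, Cd3g and Trac were all present. Their summed level was 4201 to 4955 UMIs per 1000000 UMIs in Cren and 5077 to 5689 in Crep, higher in every Crep hashtag. Markers of other cells were lower than these: 9 of 9 myeloid markers summed to 217 to 299.9 in Cren and 181 to 270.2 in Crep on that scale, and 5 of 5 CD4 T cell markers to 29.5 to 79.1 and 19.0 to 29.8. Cd4 itself passed the test between the groups. The 4 of 5 NK and ILC markers in the table gave 28.9 to 43.0 and 28.5 to 46.3, and 3 of 6 B and plasma markers 14.4 to 38.8 and 8.73 to 27.6. Epithelial and stromal markers (3 of 6) gave 15.8 to 21.6 and 8.05 to 15.5, higher in every Cren hashtag. Of the lists for T cell states, the 6 exhausted-like markers summed to 653 to 846 in Cren and 525 to 638 in Crep, lower in every Crep hashtag. The stem-like, cytotoxic-like, tissue-resident-like and proliferating sums overlapped between the groups. Pdcd1 of the exhausted-like list and Klrd1 of the cytotoxic-like list passed the test between the groups. The part of all these marker differences in the results below was not tested. Bcl6, the targeted gene, stood at 16.6, 17.4, 15.6 and 20.7 CPM (UMIs per 1000000 UMIs, scaled between hashtags by edgeR's TMM method) in Cren_1 to Cren_4. It stood at 31.9, 30.6, 30.9 and 24.3 CPM in Crep_1 to Crep_4 and was higher in every Crep hashtag, by a log2 fold change of 0.75 (SE 0.14, adjusted p = 0.0293, edgeR quasi-likelihood test with Benjamini-Hochberg adjustment). This is the opposite of a loss of the transcript. The kit counts the 5′ end of a transcript and no source used here gives the deleted exons, so the Bcl6 count checks neither label, and Crep and Cren below are the labels of the annotation.

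Over all cells, most interferon response genes had a slightly higher level in the hashtags labelled Crep, but no single one passed the test over all genes. Summed over each hashtag's cells, 42 of the 44 had enough UMIs to be tested, and Oasl2 (16 UMIs in all) and Usp18 (74 UMIs) did not. The log2 fold change, Crep minus Cren, was above 0 for 36 of the 42, with a median of 0.20, while 49.9% of all 9653 genes tested lay above 0 and their median was 0.00. By the edgeR quasi-likelihood test 0 members passed a Benjamini-Hochberg adjusted p of 0.05, against 59 genes in all (0.611%). An unadjusted p under 0.05 was reached by 12 members, 11 of them higher in Crep, where 5.69% of all genes were higher at that level and 11.1% differed in either direction. DESeq2 called 2 members, Ifi27l2a and Ly6a, where it called 1.48% of the 9650 genes it gave an adjusted p. The count above 0 ran from 33 to 40 when each hashtag was left out in turn. The members come from the same hashtags and are not independent of each other. They were also chosen with earlier results of these data known, so the count above 0 is a description. The median percent of mitochondrial UMIs per cell also differed, at 0.75, 0.73, 0.67 and 0.805 in Cren_1 to Cren_4 and at 0.64, 0.65, 0.64 and 0.615 in Crep_1 to Crep_4. Every Cren hashtag was above every Crep hashtag, and the part of this difference in the result was not tested. In such sums a change in the mix of cells and a change in RNA per cell cannot be told apart.

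**Figure D1:**
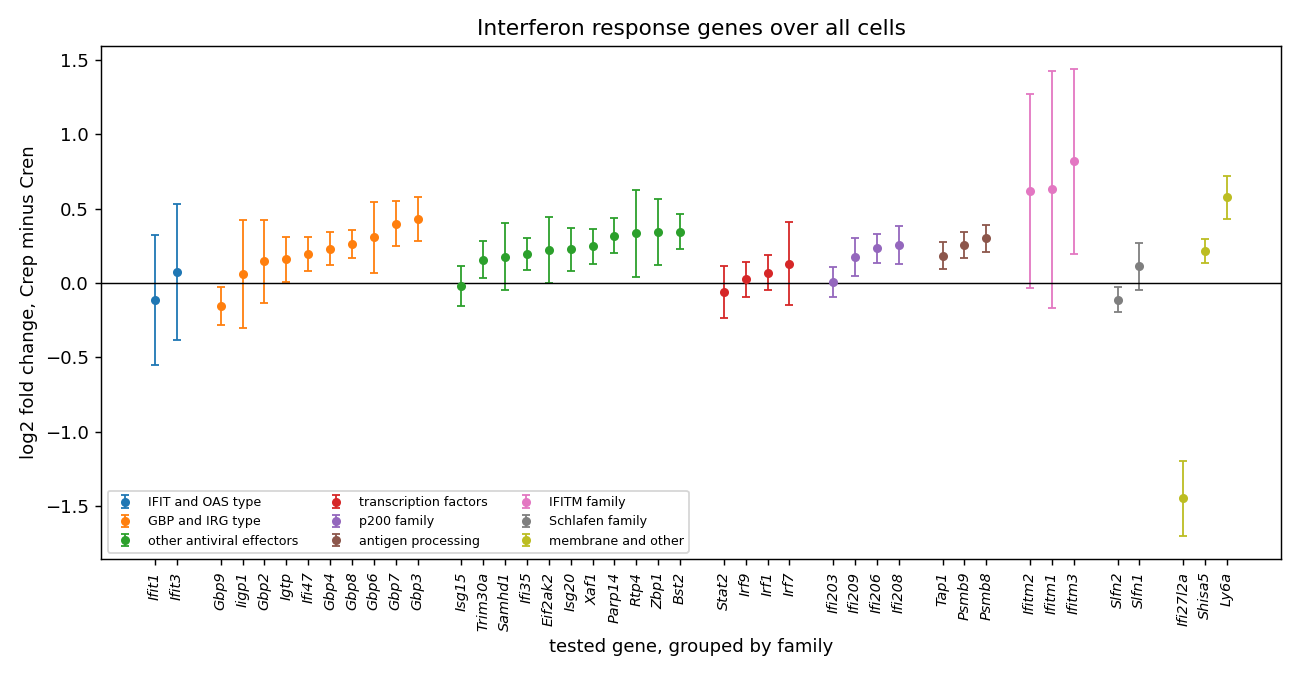
Log2 fold change over all cells (Crep minus Cren, vertical axis) of the 42 tested interferon response genes, grouped by family along the horizontal axis; points are edgeR estimates and bars 1 standard error. Most points lie between 0 and 0.5, Ifi27l2a lies at -1.45, and the 3 IFITM genes have the widest bars.

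By family, 9 of 10 GBP and IRG genes lay above 0 (median log2 fold change 0.21), 10 of 11 other antiviral effectors (0.23), 4 of 4 p200 genes (0.20), 3 of 3 antigen processing genes (0.26) and 3 of 3 IFITM genes (0.63). The 4 transcription factors had a median of 0.05 with 3 above 0. The IFIT and OAS type had 1 of 2 above 0 and a median of -0.02, and the Schlafen pair 1 of 2 and a median of 0.00. The IFIT and OAS median rests on 2 rare genes. A wider pathway list, described below, held 11 other tested genes of IFIT, OAS and MX type. Of these, 10 lay above 0, with a median of 0.27, as did 4 of its 5 tested GBP and IRG genes (0.15). No gene of either set passed the test.

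The comparison of the 3 listed IFIT and OAS genes with the 10 listed GBP and IRG genes was mainly one of level. It covers these lists and not the whole families. The wider pathway list had 13 other genes of IFIT, OAS and MX type in the table and 6 other GBP and IRG genes. None of them entered these sums or the shares of cells given next. The GBP and IRG genes summed to 20601 UMIs, and the IFIT and OAS genes to 326. The summed GBP and IRG level was 808, 626, 849 and 707 UMIs per 1000000 UMIs in Cren_1 to Cren_4 and 807, 760.0, 881 and 1018 in Crep_1 to Crep_4, a mean of 747 ± 101 (SD, n = 4) against 867 ± 112 (SD, n = 4). The IFIT and OAS level was 13.6, 5.34, 17.9 and 14.4 in Cren and 11.9, 7.48, 12.1 and 20.9 in Crep, a mean of 12.8 ± 5.3 (SD, n = 4) against 13.1 ± 5.6 (SD, n = 4). In both families Cren_2 was lowest and Crep_4 highest of the 8 hashtags, and the groups overlapped. The ratio of the GBP and IRG sum to the IFIT and OAS sum ran from 47.5 to 117 over hashtags, with a median of 63.7. The kit tags 1 end of each transcript, so these sums were compared without scaling for length. When the 12 other antiviral effectors, such as Isg15, Samhd1 and Zbp1, were added to the IFIT and OAS genes, the ratio was near 1, from 1.09 to 1.27 with a median of 1.16.

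Single cells showed the same order of the 2 families. Each cell was thinned at random to 2000 UMIs and 6639 cells were kept, with 199 to 337 shallower cells left out per hashtag. Among them, the share with a UMI of the IFIT and OAS type was 2.26% ± 0.82 (SD, n = 4) in Cren and 2.11% ± 1.01 (SD, n = 4) in Crep. The share with a UMI of the GBP and IRG type was 72.4% ± 3.9 (SD, n = 4) and 79.4% ± 3.7 (SD, n = 4). Without thinning the IFIT and OAS shares were 3.14% and 3.38%, and the GBP and IRG shares 80.3% and 84.5%. No cell type that should lack these genes was in the table, so the share that free RNA gives was not measured.

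Ifit1 and Ifit3 encode proteins that bind viral RNA. Ifit1 stood at 2.14, 1.24, 4.28 and 6.51 CPM in Cren_1 to Cren_4 and at 3.58, 2.06, 3.87 and 3.04 CPM in Crep_1 to Crep_4. Ifit3 stood at 11.2, 3.42, 12.5 and 7.28 CPM in Cren and at 7.80, 5.29, 7.41 and 17.1 CPM in Crep. Neither gene separated the groups, and their log2 fold changes of -0.11 (SE 0.44) and 0.07 (SE 0.45) were within their errors. Oasl2, an OAS-like protein, had 1 to 4 UMIs in each hashtag, 9 in Cren and 7 in Crep.

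Of the GBP genes, which encode large GTPases that coat the membranes of intracellular microbes, Gbp3 and Gbp8 had the smallest p. Gbp3 stood at 43.3, 40.4, 47.4 and 38.3 CPM in Cren and at 54.3, 41.8, 58.6 and 75.2 CPM in Crep, a log2 fold change of 0.43 (SE 0.15, adjusted p = 0.284 by edgeR). Gbp8 stood at 52.1, 51.0, 59.6 and 56.7 CPM in Cren and at 59.5, 66.2, 68.3 and 69.2 CPM in Crep, a log2 fold change of 0.26 (SE 0.09, adjusted p = 0.284 by edgeR). For each gene 3 of 4 Crep hashtags exceeded the highest Cren value, and neither gene passed the test. Gbp2 stood at 128, 66.2, 93.9 and 66.7 CPM in Cren and at 78.4, 81.4, 101 and 136 CPM in Crep, with overlapping groups. Gbp9 was the one member of the family below 0, at -0.15 (SE 0.13). Gbp4, Gbp8 and Gbp9 overlap on chromosome 5 in the GENCODE annotation, and GBP genes are close copies, so reads may be split between them.

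The IRG genes encode smaller GTPases with a like role. Ifi47, the most abundant of the family, stood at 273, 224, 322 and 275 CPM in Cren and at 283, 272, 346 and 351 CPM in Crep (log2 fold change 0.19, SE 0.11). Igtp stood at 95.4, 57.5, 104 and 81.6 CPM in Cren and at 89.7, 90.9, 98.6 and 99.2 CPM in Crep (log2 fold change 0.16, SE 0.15). Iigp1 was rare, at 4.99, 3.73, 1.83 and 8.81 CPM in Cren and 5.53, 4.41, 4.51 and 5.32 CPM in Crep. The groups overlapped for all 3 genes, and Cren_2 was the lowest hashtag for Igtp and Ifi47.

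Among the other antiviral effectors, Bst2, which tethers budding virus to the cell surface, stood at 79.9, 70.9, 100.004 and 70.9 CPM in Cren and at 93.0, 97.6, 98.3 and 120.5 CPM in Crep. Its log2 fold change was 0.34 (SE 0.12, adjusted p = 0.262 by edgeR), and it passed only when Cren_3, the highest Cren hashtag, was left out (adjusted p = 0.0482). Bst2 also marks plasmacytoid dendritic cells. Of the 3 other markers of that cell listed, Tcf4 and Ccr9 were in the table and summed to 6.82 to 14.1 UMIs per 1000000 in Cren and 7.21 to 8.60 in Crep, with overlapping groups. Samhd1, which depletes nucleotides, stood at 141, 71.5, 124 and 90.4 CPM in Cren and at 101, 108, 143 and 134 CPM in Crep. Of the 11 tested effectors Isg15 alone lay below 0, at -0.02 (SE 0.13), and the others ran from 0.16 to 0.34.

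The transcription factors, which carry or amplify the interferon signal, differed little between the groups. Irf1 stood at 315, 277, 379.8 and 243 CPM in Cren and at 301, 320.2, 352 and 301 CPM in Crep (log2 fold change 0.07, SE 0.12). Irf7, Irf9 and Stat2 gave 0.13, 0.02 and -0.06, each smaller than its standard error. The p200 genes encode DNA-binding proteins of the innate response. Ifi203 stood at 92.5, 91.7, 126 and 109 CPM in Cren and at 102, 104, 111 and 104 CPM in Crep, a log2 fold change of 0.01 (SE 0.10). Ifi208 (chr1:173673675-173698395, GRCm38) stood at 61.6, 52.2, 77.4 and 51.7 CPM in Cren and at 68.0, 67.3, 69.6 and 86.3 CPM in Crep, a log2 fold change of 0.25 (SE 0.13, adjusted p = 0.495 by edgeR). Both pairs of groups overlapped. The p200 genes are near copies of each other and their counts may be shared.

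The antigen processing genes, 2 subunits of the immunoproteasome and a peptide transporter, lie side by side on chromosome 17. Psmb8 (chr17:34197721-34201454, GRCm38) stood at 951, 1006, 1199 and 930.5 CPM in Cren and at 1186, 1359.65, 1180.1 and 1309 CPM in Crep. Psmb9 stood at 307, 325, 376 and 291 CPM in Cren and at 355, 425, 379.5 and 393 CPM in Crep. Their log2 fold changes of 0.30 (SE 0.09) and 0.26 (SE 0.09) had adjusted p = 0.181 and adjusted p = 0.269 by edgeR. In both genes the other three Cren hashtags lay below every Crep hashtag and Cren_3 lay among them, and without Cren_3 Psmb8 passed (adjusted p = 0.0389). The transporter Tap1, at 0.18 (SE 0.09), overlaps Psmb9 in the annotation.

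The groups separated fully for 3 of the 42 tested members, all in the remaining set of membrane and other genes. Ly6a and Shisa5 were higher in every Crep hashtag and Ifi27l2a lower in every one. Over all genes 3.44% were higher and 3.26% lower in this way, so the count of such members is near the share over all genes. Ifi27l2a (chr12:103442167-103443680, GRCm38), a small interferon-induced membrane protein, stood at 156, 132, 219.6 and 142 CPM in Cren and at 66.3, 67.0, 68.6 and 35.0 CPM in Crep. Its log2 fold change was -1.45 (SE 0.25), a level 2.73-fold higher in Cren, with adjusted p = 0.0704 by edgeR. The test was passed without Cren_3 (adjusted p = 0.0373), without Crep_4 (adjusted p = 0.0105) and, by limma, with the mix of clusters held fixed over the clusters that had 10 cells in every hashtag, thus without clusters 7, 8, 10 and 11 (log2 fold change -1.08, adjusted p = 0.00977). It also passed by DESeq2 and by edgeR with the replicate number as a block. Ifi27l2a was thus the member with the largest difference, and its direction was opposite to that of most others.

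Ly6a (chr15:74994877-74998031, GRCm38), the surface protein Sca-1, stood at 969.8, 613, 946 and 872 CPM in Cren and at 1092, 1287, 1187 and 1501 CPM in Crep. Its log2 fold change was 0.57 (SE 0.15, adjusted p = 0.143 by edgeR). Shisa5, a membrane protein of the endoplasmic reticulum, stood at 1272, 1412, 1358 and 1223 CPM in Cren and at 1415, 1621, 1545 and 1532 CPM in Crep (log2 fold change 0.22, SE 0.08, adjusted p = 0.295 by edgeR). The Schlafen gene Slfn2, which keeps T cells quiescent, stood at 429.7, 373, 372 and 437 CPM in Cren and at 374, 337, 383 and 397 CPM in Crep, with overlapping groups.

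**Figure D2:**
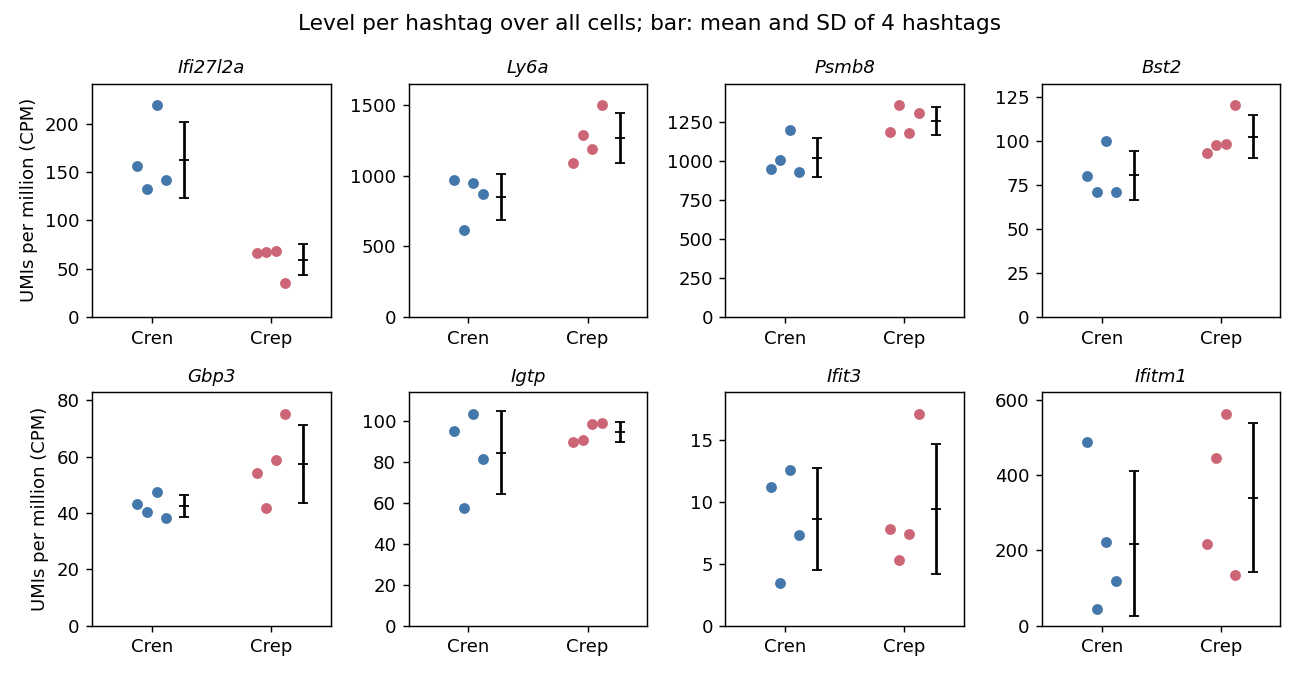
Level over all cells (CPM, vertical axes from 0) of 8 members in each hashtag, blue for Cren and red for Crep, with the mean and SD of 4 hashtags as a black bar. Ifi27l2a and Ly6a separate the groups, and the other genes overlap. For Psmb8 and Bst2 only Cren_3 lies among the Crep hashtags, and for Gbp3 only Crep_2 lies among the Cren hashtags.

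Over all cells the IFITM genes, whose products sit in membranes and hinder virus entry, differed more between hashtags than between groups. Ifitm1 (chr7:140967221-140969825, GRCm38) stood at 488, 44.8, 221 and 119 CPM in Cren and at 218, 445, 564 and 135 CPM in Crep. Each group held both high and low hashtags, and the summed family level differed 8.79-fold between Cren_2, the lowest, and Crep_3, the highest. The log2 fold changes of Ifitm1, Ifitm2 and Ifitm3 were 0.63 (SE 0.80), 0.62 (SE 0.65) and 0.82 (SE 0.62), none past the test.

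The annotation divides the cells into 12 fine clusters, made by the authors from the same cells, so levels between clusters are a description without a test. Levels are means over the hashtags with at least 20 cells and are given for each group apart, where at least 3 of its hashtags had that many. Cluster 7 is then described from Crep alone, since each Cren hashtag held 1 to 9 of its cells, and 383 of its 592 cells were from Crep_4. Cluster 8 is described from Cren alone, with 38 to 191 cells of each Cren hashtag against 5 to 22 of each Crep hashtag.

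The IFITM family varied most. In Crep it ran from 2762 ± 477 UMIs per 1000000 (SD, n = 3) in cluster 5 and 1060.1 ± 279 (SD, n = 4) in cluster 0 to 98.7 ± 70.9 (SD, n = 4) in cluster 7. In Cren it was at a like level in cluster 6 (806 ± 605, SD, n = 4) and in cluster 5 (798 ± 499, SD, n = 4), and its spread over hashtags was wide. The GBP and IRG type was lowest in cluster 5 in both groups, at 624 ± 26.6 (SD, n = 4) in Cren and 716 ± 148 (SD, n = 3) in Crep. It reached 942 ± 126 (SD, n = 4) in cluster 3 in Cren and 999.5 ± 174 (SD, n = 4) in cluster 7 in Crep, where cluster 3 stood at 984 ± 161 (SD, n = 4), so these 2 clusters differed by less than their spread. The transcription factors were highest in cluster 6 in both groups, at 710.5 ± 120.4 (SD, n = 4) in Cren and 747 ± 113 (SD, n = 4) in Crep.

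Isg15 was highest in cluster 2 in both groups, at 123 ± 33.5 (SD, n = 4) in Cren and 134 ± 57.4 (SD, n = 4) in Crep, within its spread of cluster 3. Ifi27l2a in Cren was highest in cluster 8 (324 ± 95.1, SD, n = 4) and next in cluster 5 (285 ± 77.7, SD, n = 4), which differed by less than their spread. In Crep it was highest in cluster 5 (121 ± 65.7, SD, n = 3). Ly6a in Crep stood at 1634 ± 303 (SD, n = 4) in cluster 0 and 1578 ± 237 (SD, n = 4) in cluster 7. In Cren it was highest in cluster 3 (1118 ± 137, SD, n = 4), with cluster 0 at 895 ± 314 (SD, n = 4). Psmb8 in Crep stood at 1493 ± 35.0 (SD, n = 4) in cluster 7, 1327 ± 149 (SD, n = 4) in cluster 3 and 1315 ± 76.4 (SD, n = 4) in cluster 0. In Cren it stood at 1192 ± 113 (SD, n = 4) in cluster 3 and 1157 ± 133 (SD, n = 4) in cluster 8.

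**Figure D3:**
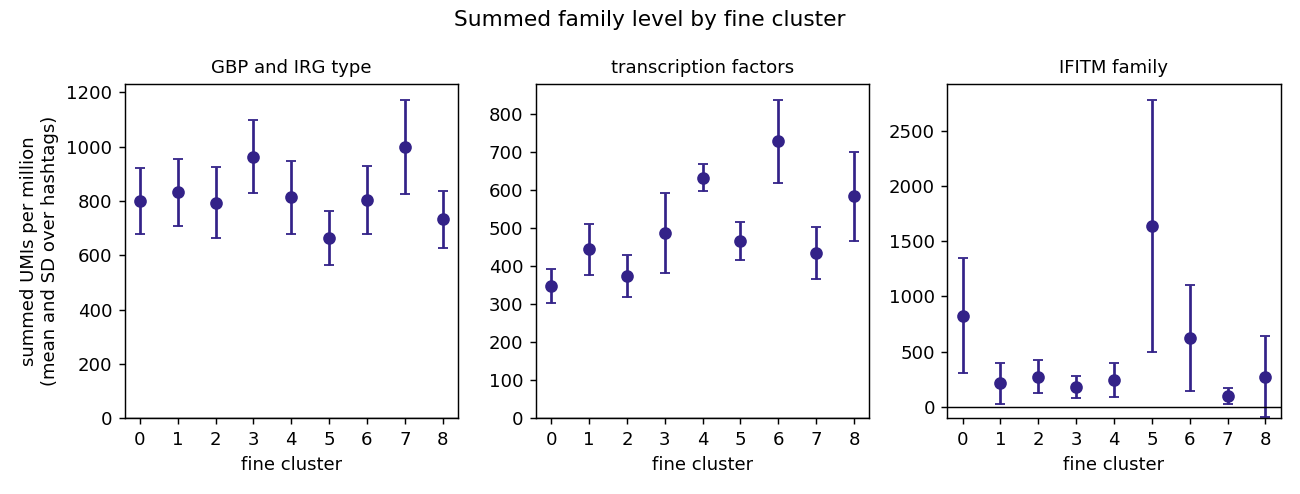
Summed level of 3 families (UMIs per 1000000 UMIs, vertical axes) in fine clusters 0 to 8 (horizontal axes), as mean and SD over the hashtags of either group with at least 20 cells; cluster 7 rests on 4 Crep hashtags, cluster 8 on 4 Cren and 1 Crep. The pooled mean of the IFITM family is highest in cluster 5 and that of the transcription factors in cluster 6. That of the GBP and IRG type differs least of the 3 in relative terms, from 663 in cluster 5 to 999.5 in cluster 7.

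Within clusters the Crep and Cren hashtags were compared where at least 3 hashtags of each group had 20 cells, which held for clusters 0, 1, 2, 3, 5 and 6. In cluster 0, 2 of 35 tested members passed, where 53 of 5409 genes did (0.98%). Ifi27l2a fell there, from 241, 198, 148 and 108 CPM in Cren to 56.8, 58.8, 34.1 and 29.6 CPM in Crep (log2 fold change -1.79, SE 0.26, adjusted p = 0.00221 by edgeR). Ifi208 rose, from 73.8, 36.1, 68.4 and 46.2 CPM in Cren to 96.1, 81.0, 97.8 and 133 CPM in Crep (log2 fold change 0.83, SE 0.21, adjusted p = 0.0373 by edgeR). Both genes separated the groups in this cluster. Ifi27l2a passed under DESeq2, which called 0.791% of all genes in this cluster, and with each hashtag left out, whereas Ifi208 did not pass under DESeq2 (adjusted p = 0.127) or without Cren_2, Cren_4 or any of the 4 Crep hashtags (adjusted p up to 0.233).

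In cluster 5, where Crep_4 had 19 cells and was not fitted, Psmb8 passed, among 48 of 4044 genes (1.19%). It rose from 899, 972, 1065 and 899 CPM in Cren to 1385, 1312 and 1275 CPM in Crep (log2 fold change 0.46, SE 0.11, adjusted p = 0.0112 by edgeR), and the groups did not overlap. With DESeq2, or with a minimum of 10 cells that let Crep_4 in, 3 members passed in each case, against 1.01% and 1.5% of all genes. The edgeR call of Psmb8 was lost without Cren_1, Crep_1, Crep_2 or Crep_3, at adjusted p = 0.107, 0.0729, 0.0839 and 0.0818. In clusters 1, 2, 3 and 6, 0 members passed by edgeR, where 0.173%, 0.28%, 0% and 0.0269% of all genes did. Of the members tested there, 2 of 34, 6 of 35, 3 of 35 and 3 of 33 had an unadjusted p under 0.05, where 6.45%, 6.13%, 5.74% and 5.71% of all genes did, and DESeq2 also called 0 members in each, with 0.108%, 0.24%, 0.044% and 0% of all genes. In clusters 0 and 5 that level was reached by 13 of 35 and 10 of 33 members, against 8.58% and 10.3% of all genes. In clusters 0, 1 and 2, 30 of 35, 24 of 34 and 25 of 35 tested members had a log2 fold change above 0. In clusters 3, 5 and 6, 25 of 35, 23 of 33 and 17 of 33 did. The members' medians in this order were 0.25, 0.09, 0.20, 0.11, 0.12 and 0.02, with medians of all genes from -0.016 to -0.003. The log2 fold change of Ifi27l2a was below 0 in all 6 clusters, from -0.53 in clusters 1 and 6 to -1.79 in cluster 0, and that of Ly6a above 0 in all 6, from 0.29 to 0.88.

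The difference between the group effects in clusters 0 and 1, the 2 largest, was tested with hashtag as a block, and 8 of 6080 genes passed (0.132%). Ifitm1 was the only member among them. In cluster 0 it stood at 919, 61.2, 413 and 43.5 UMIs per 1000000 in Cren_1 to Cren_4 and at 383, 802, 657 and 451 in Crep_1 to Crep_4. In cluster 1 it stood at 415, 27.9, 148 and 35.7 in Cren and at 59.6, 194, 80.6 and 65.6 in Crep. Every hashtag had more Ifitm1 in cluster 0, by 2.21, 2.196, 2.79 and 1.22 times in Cren and by 6.44, 4.14, 8.16 and 6.88 times in Crep, so the groups did not overlap. The effect of Crep in cluster 1 minus that in cluster 0 was -1.49 on the log2 scale (SE 0.20, adjusted p = 1.75e-05 by edgeR), and it passed with each hashtag left out, from -1.25 to -1.77. Tested within each cluster alone, Ifitm1 did not pass between the groups, with adjusted p = 0.898 in cluster 0 and 0.949 in cluster 1 by edgeR. The IFITM genes are near copies of each other, and Ifitm2 is among the 10 genes that lead cluster 0.

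**Figure D4:**
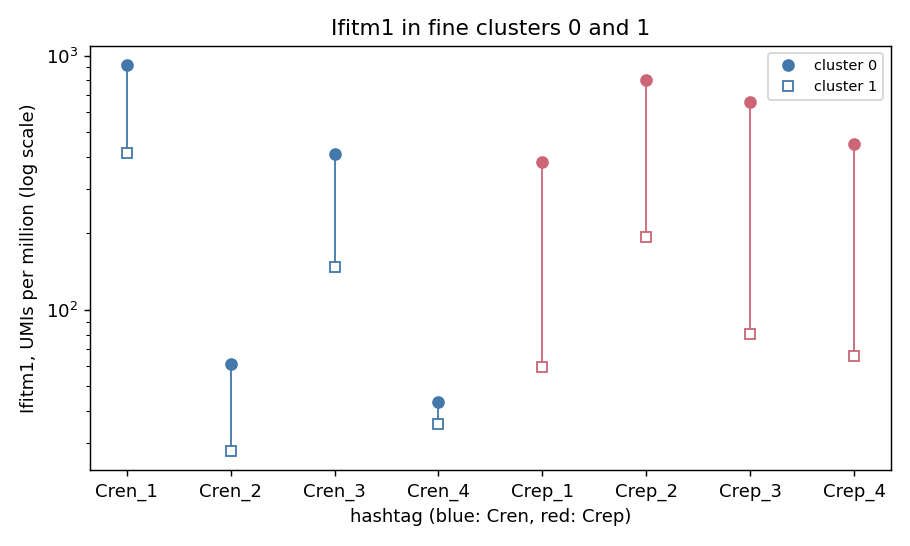
Ifitm1 level (UMIs per 1000000 UMIs, logarithmic vertical axis) in fine cluster 0 (filled circles) and cluster 1 (open squares) of each hashtag (horizontal axis; blue Cren, red Crep). The line joining the 2 clusters is longer in each Crep hashtag, with ratios of 4.14 to 8.16, than in each Cren hashtag, with ratios of 1.22 to 2.79.

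Cells with a UMI of Ifit1, Ifit3 or Oasl2 also held more of several other families. Of the 6639 thinned cells, 143 had such a UMI, 9 to 27 per hashtag, with a median of 3022 UMIs before thinning against 3106 in the others. The other antiviral effectors gave 2.35 UMIs per cell in these cells and 1.31 in the rest, a ratio of 1.79 that ran from 1.16 to 2.34 over hashtags. The p200 genes gave a ratio of 1.72, the GBP and IRG type 1.44 and the transcription factors 1.39, each above 1 in 8 of 8 hashtags. The antigen processing genes gave 1.03, from 0.61 to 1.33 over hashtags, and the IFITM family 0.39, below 1 in 8 of 8. Among single genes, Rtp4 gave 4.00 (0 to 16.7 over hashtags), Isg15 3.05 (0.57 to 9.99), Zbp1 2.44 (1.15 to 4.51) and Irf7 2.12 (0.61 to 4.35). Irf1 gave 1.12 (0.61 to 1.83), and of the antiviral effectors Ifi35 gave the lowest ratio, 0.74. The GBP and IRG genes ran from 1.19 for Ifi47 to 3.98 for Iigp1, with Gbp7 at 2.03 and Gbp9 at 2.40. Iigp1 had 5 UMIs and Rtp4 23 in these cells. These ratios describe 143 cells that share libraries, clusters and hashtags, and no test was made over cells.

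**Figure D5:**
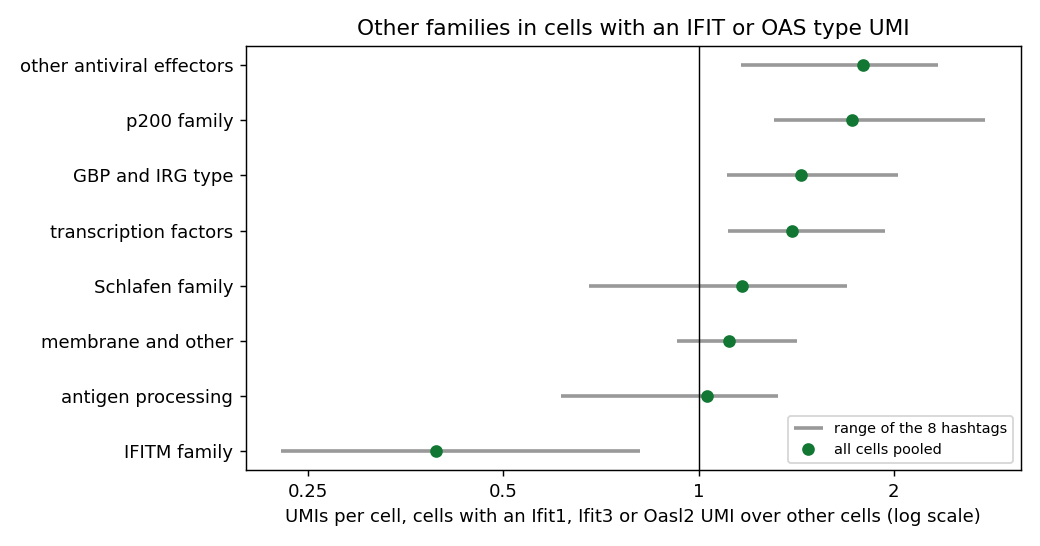
Mean UMIs per cell of each other family in cells with an Ifit1, Ifit3 or Oasl2 UMI, divided by that in the other cells (horizontal axis, logarithmic), all cells thinned to 2000 UMIs; points pool all cells and lines span the 8 hashtags. The other antiviral effectors, p200 genes, GBP and IRG type and transcription factors lie above 1 in every hashtag, and the IFITM family lies below 1.

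A wider list of 96 genes of the interferon pathway, 81 of them in the table, placed the members among their ligands, receptors and signalling proteins. This list too was chosen with earlier results of these data known. Of the 75 tested, 52 lay above 0, with a median log2 fold change of 0.17, where 49.9% of all genes did, and 1 passed by edgeR, where 0.611% of all genes did. This was Lgals9, which encodes the lectin galectin-9, at 145, 142, 157 and 126 CPM in Cren and 179.8, 207, 175 and 193 CPM in Crep (log2 fold change 0.40, SE 0.09, adjusted p = 0.0485). It was higher in every Crep hashtag, but the call was lost when any hashtag other than Cren_3 was left out (adjusted p up to 0.142). The next smallest p belonged to Tapbp, the peptide-loading protein tapasin, and H2-T23, a class Ib MHC gene, with log2 fold changes of 0.32 and 0.27 and adjusted p = 0.143 and 0.204 by edgeR.

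The ligand Ifng was abundant and slightly lower in Crep without passing, at 423, 319, 323 and 237 CPM in Cren and 354, 234, 279.96 and 223 CPM in Crep (log2 fold change -0.26, SE 0.21). The receptor chains Ifnar1, Ifnar2 and Ifngr1 had log2 fold changes of 0.01, -0.18 and 0.04, none past the test, and Ifngr2 had 12 UMIs and was not tested.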

How the data were processed

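RNA of pooled, hashtagged colon CD8 T cells was measured with a 10x Genomics 5′ v2 kit, per the labels' protocols. The submitters' processing notes name Seurat 4.3.0, Cell Ranger 7.0.0, bcl2fastq 2.20.0.422 and the mm10 build, without roles. The authors deposited raw UMI counts per gene and cell. They also deposited each cell's total count, its percent of mitochondrial and ribosomal UMIs, hashtag, group and cluster. Cells were used as deposited; no doublet caller was run here, and 115 cells not given the same hashtag by both classifiers were left out as an alternative.

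Counts were summed per hashtag and tested with edgeR 4.0.16 (TMM, low-count filter, quasi-likelihood, Benjamini-Hochberg threshold 0.05) in R 4.3.3, over all cells and within clusters. Alternatives used DESeq2 1.42.0 and limma 3.58.1. On simulated counts of 9524 genes, 29 of 50 genes changed 1.5-fold and 48 of 50 changed 2-fold were recovered for the comparison over all cells. In the same run 14 unchanged genes were called. The changed genes were drawn from the more abundant genes, so recovery of rare genes such as Ifit1 and Ifit3, or of changes under 1.5-fold, was not measured. Gene positions are from GENCODE M21 (GRCm38, the same build as mm10). Levels are per 1000000 UMIs, with TMM scaling where called CPM.

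The members and gene lists were chosen with earlier results of these data known. Named with values are members that passed anywhere, the 8 of smallest p, the most abundant of each family, and Ifit1, Ifit3, Oasl2, Igtp, Iigp1 and Gbp2. Of the pathway list these are genes that passed, the 3 of smallest p, and Ifng and the 4 receptor chains; 1 gene that this rule names is not reported here.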

Additional observations from a re-analysis of the deposited data

Results flagged for a closer look

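In 84 sets of 4 hashtags (42 tested members in each group), 4 held a hashtag that stood apart from the other three by Dixon's test, and chance alone gives about 1 in 20. Gbp9 was low in Cren_1, at 30.7 CPM against 41.0 to 42.3 in the other Cren hashtags. Xaf1 was low in Crep_1, at 41.6 CPM against 48.0 to 49.1. Crep_4 stood apart for 2 genes: Ifi208 was high there, at 86.3 CPM against 67.3 to 69.6, and Ifi27l2a was low, at 35.0 CPM against 66.3 to 68.6.

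The group effect on Ifitm1 differed between clusters 1 and 0, by -1.49 on the log2 scale, in the test of the difference itself.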

How the results depend on the processing

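Members called over all cells numbered 2 with DESeq2, 1 with the replicate block (Ifi27l2a, log2 fold change -1.45, adjusted p = 0.0204), 1 with the mix of clusters held fixed, and 0 to 3 with each hashtag left out (3 without Cren_3, 1 without Crep_4). Genes called in all numbered 143, 103, 25 and, by limma-voom, 37, and 14 to 121 with a hashtag left out: 121 without Cren_3 and 14 to 42 without any other. Pathway genes called numbered 0 by limma-voom, 0 with the mix held fixed, and 0 to 3 with a hashtag left out. Within clusters, DESeq2 called 1 member in cluster 0 and 3 in cluster 5 (Ifitm1, Ifi27l2a and Psmb8), and a minimum of 10 cells gave 3 in cluster 5 (Ifi27l2a, Ly6a and Psmb8). Genes called in all under these 3 settings numbered 27 of 3415, 29 of 2867 and 52 of 3478. With a hashtag left out the calls were 1 to 2 in cluster 0, 0 to 1 in cluster 1 (Ifitm2, without Cren_1) and 0 to 2 in cluster 5. The family ratio was 1.16 with the wider antiviral family. The cause of these changes was not tested.

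Of 46 results for single genes, 12 changed sign somewhere, none of which passed the test. Ifit1 was 0.11 by limma-voom. Without the cells whose classifiers differed, Iigp1 was -0.0066 and Ifi203 -0.0035, and by upper-quartile scaling Ifi203 was -0.0050. With the mix of clusters held fixed, Isg15 was 0.0209, Ifi35 -0.0393, Stat2 0.0926, Irf9 -0.0614 and Ifi206 -0.0030. With each hashtag left out, the log2 fold change ran from -0.39 to 0.29 for Ifit1, -0.36 to 0.30 for Ifit3, -0.0424 to 0.38 for Gbp2, -0.21 to 0.45 for Iigp1, -0.16 to 0.0618 for Isg15 and -0.23 to 0.0490 for Stat2. It ran from -0.0257 to 0.19 for Irf1, -0.0415 to 0.33 for Irf7, -0.0434 to 0.12 for Irf9 and -0.0558 to 0.11 for Ifi203.

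Hashtags with the same number correlated by -0.04, 0.14, 0.18 and 0.12, so 1 of 4 pairs was not over 0.1 and the numbers were not taken as pairs. Such a cutoff cannot show that they are not pairs. Crep_2, Crep_3 and Crep_4 each correlated best with the Cren hashtag of the same number, and Crep_1 with Cren_2 (0.21); the replicate block raised the count of genes called from 59 to 103. With 326 UMIs in all, the IFIT and OAS type allows no small difference to be seen.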
